A study of Homo sapiens with 4 samples.

Results

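In H1 human embryonic stem cells with knockdown of the m6A reader YTHDF1, 2167 H2AK119ub peaks each joined stretches that the wild-type peak list kept apart. These bridging peaks were chosen by their measured positions, as knockdown peaks that share at least 1 bp with 2 or more separate wild-type peaks, so their overlaps, widths and scores are descriptions. They made up 2167 of 34097 knockdown peaks on chromosomes 1 to 22 (6.36%), out of 67191 peaks in the 2 lists together. H1 is an established embryonic stem cell line. One group of H1 cells was untreated and is called wild type here, and the other was treated with YTHDF1 shRNA. Both were grown in mTeSR1 medium, and chromatin of each was precipitated with an anti-H2AK119ub antibody. Each group had 1 such library, so a spread between replicates could not be measured, no test was run and values are given side by side. The lists hold no read counts, so depth is unknown, and neither the knockdown of YTHDF1 nor the stem cell identity could be checked from peaks. The hairpin, its efficiency and the number of cultures are not given in the sources used here, and the input libraries were not analysed here.

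H2AK119ub is histone H2A carrying a single ubiquitin on a lysine of its tail. Polycomb repressive complex 1 (PRC1) attaches it through its catalytic subunits RING1 and RNF2, mostly at CpG-rich promoters and over silent developmental genes, where the mark forms broad domains. YTHDF1 binds messenger RNA that carries the methylated adenosine m6A and is known for promoting its translation. A gap between neighbouring peaks is a stretch where the signal was too low to be called, and a bridged gap is one that a peak of the other list covers from end to end.

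Promoter sequences are shown first for 3 genes whose transcript start lay in no called wild-type peak and in a bridging knockdown peak. Each sequence runs from 250 bases before to 50 bases after the start and is written 5′ to 3′ on the gene's strand from RefSeq GRCh38.p14, with every CG dinucleotide in capitals. RPL13A encodes a protein of the large ribosomal subunit (chr19:49487358-49487657, plus strand, 31 CG). LCORL encodes a transcription factor, and its locus also gives rise to a protein associated with Polycomb repressive complex 2 (chr4:18021706-18022005, minus strand, 28 CG). ZNF416 encodes a zinc finger protein (chr19:57578862-57579161, minus strand, 24 CG). Each of the 3 windows lay wholly inside a bridged gap, of 1.8 kb at RPL13A, 1 kb at LCORL and 0.8 kb at ZNF416.
RPL13A: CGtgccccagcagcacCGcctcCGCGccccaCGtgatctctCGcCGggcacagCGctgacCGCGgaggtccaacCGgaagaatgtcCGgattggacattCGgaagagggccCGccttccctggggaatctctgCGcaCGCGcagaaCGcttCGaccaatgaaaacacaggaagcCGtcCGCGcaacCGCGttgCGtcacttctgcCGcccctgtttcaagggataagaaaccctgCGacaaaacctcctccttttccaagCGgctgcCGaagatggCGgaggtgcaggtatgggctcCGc
LCORL: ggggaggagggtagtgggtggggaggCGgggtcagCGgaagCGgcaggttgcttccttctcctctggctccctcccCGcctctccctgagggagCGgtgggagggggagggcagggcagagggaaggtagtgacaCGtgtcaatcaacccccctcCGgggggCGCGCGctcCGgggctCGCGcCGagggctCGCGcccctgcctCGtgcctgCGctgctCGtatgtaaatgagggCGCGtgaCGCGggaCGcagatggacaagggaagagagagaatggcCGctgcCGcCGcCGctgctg
ZNF416: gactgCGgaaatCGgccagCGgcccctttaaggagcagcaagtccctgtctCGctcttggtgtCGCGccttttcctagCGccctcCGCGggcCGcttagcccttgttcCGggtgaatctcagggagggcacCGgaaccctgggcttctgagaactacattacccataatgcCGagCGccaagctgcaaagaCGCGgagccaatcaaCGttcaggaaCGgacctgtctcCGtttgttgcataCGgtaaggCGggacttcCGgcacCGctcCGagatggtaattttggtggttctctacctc

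For contrast, 2 promoters follow whose starts lay in gaps between wild-type peaks that no knockdown peak bridged. They were chosen after the values were seen, for CG counts nearest the median of 13 over starts in such gaps up to 2 kb. CCDC61, which encodes a centrosomal protein, has its window at chr19:45995217-45995516 (plus strand, 13 CG) in a gap of 1.8 kb. PRAME, which encodes a cancer-testis antigen, has its window at chr22:22557583-22557882 (minus strand, 12 CG) in a gap of 1 kb. Capitals are sparser in both than in the 3 sequences above, which that choice fixed. Counts over all gaps are given with the transcript starts.
CCDC61: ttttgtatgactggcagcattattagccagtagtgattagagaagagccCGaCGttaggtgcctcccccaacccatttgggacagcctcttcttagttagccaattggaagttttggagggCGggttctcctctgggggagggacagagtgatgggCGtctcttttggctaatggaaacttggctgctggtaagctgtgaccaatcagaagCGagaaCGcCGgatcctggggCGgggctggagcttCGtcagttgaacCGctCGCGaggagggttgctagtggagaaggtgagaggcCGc
PRAME: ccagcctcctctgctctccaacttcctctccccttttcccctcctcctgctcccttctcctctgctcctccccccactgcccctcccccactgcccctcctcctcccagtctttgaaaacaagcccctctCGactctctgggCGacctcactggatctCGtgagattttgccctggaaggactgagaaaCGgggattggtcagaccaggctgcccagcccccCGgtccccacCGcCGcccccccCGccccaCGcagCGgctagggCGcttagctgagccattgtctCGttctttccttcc

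Mature microRNAs encoded inside bridging peaks are shown because members of stem cell and developmental families lay there. The seed, bases 2 to 8, is in capitals. miR-372-3p and miR-373-3p share the seed AAGUGCU and come from a cluster known for its expression in embryonic stem cells. let-7a-5p and let-7b-5p share the seed GAGGUAG and belong to a family that is held low in pluripotent cells. miR-196a-5p is encoded among the HOXC genes, and the miR-139 hairpin lay in a bridged gap.
miR-371a-3p: aAGUGCCGccaucuuuugagugu
miR-372-3p: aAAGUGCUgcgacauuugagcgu
miR-373-3p: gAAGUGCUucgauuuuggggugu
let-7a-5p: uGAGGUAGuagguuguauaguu
let-7b-5p: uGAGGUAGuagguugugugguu
miR-196a-5p: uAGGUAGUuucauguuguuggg
miR-139-5p: uCUACAGUgcacgugucuccagu

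Bridging was mostly the joining of a pair of wild-type peaks. Of the 2167 peaks, 2023 (93.4%) touched 2 wild-type peaks, 134 touched 3, 9 touched 4 and 1 touched 5. Together they touched 4305 wild-type peaks, 13.3% of the 32451 in that list. The same rule with the lists exchanged found more members, since 3452 wild-type peaks (10.6%) touched 2 or more knockdown peaks, and 1 of them touched 13. Bridging was thus seen in both directions, with 0.628 bridging knockdown peaks for each bridging wild-type peak. The wild-type list covered more DNA in fewer peaks, 193.5 Mb against 167.1 Mb in the 34097 knockdown peaks. With the wild-type list cut by score to the same covered length, the ratio was 0.506.

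The bridging knockdown peaks were wide and high within their own list. Their median width was 7.4 kb, with quartiles of 5 and 12 kb and a range of 1.4 to 143.6 kb, against a median of 4 kb for the 23091 knockdown peaks that touched 1 wild-type peak. The authors' score per peak, of unknown unit, had a median of 33.8 against 19.1. At its ceiling of 1000 stood 120 of the 2167 bridging peaks and 516 of the 23091 others. They covered 21.5 Mb, which was 12.9% of all DNA in knockdown peaks. The share of bridging members rose with the width class in both lists. It was 0.351% of knockdown peaks up to 2 kb, 6.45% of those of 4.2 to 6 kb, 28.6% of those above 10 and up to 20 kb and 32.4% of those over 20 kb. In the wild-type list the shares of the same classes were 0.128%, 5.72%, 45.8% and 67.6%, so the directions were close among narrow peaks and lay far apart among wide ones.

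Membership rests on the calling threshold at many places. The smallest stretch shared with a touched wild-type peak was 0.2 kb, the grid step of the lists, in 259 members (11.95%), while 1349 members shared at least 1 kb with every wild-type peak that they touched. Just outside the rule, 239 knockdown peaks that touched 1 wild-type peak ended exactly where another began, and 2132 stopped within 1 kb of another.

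The gaps between the joined peaks were short. The 2167 peaks covered 2322 gaps of 2.87 Mb in all, which was 7.16% of the 32429 gaps between neighbouring wild-type peaks and 5.90% of the 48.6 Mb that knockdown peaks covered outside wild-type peaks. The median gap was 1 kb, and 1062 gaps (45.7%) had the shortest length in the lists, 0.8 kb. Only 14 of the gaps were longer than 5 kb. In the other direction, wild-type peaks covered 4372 gaps between knockdown peaks (12.8%), with 6.87 Mb in all, a median of 1 kb and 113 gaps over 5 kb.

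The share of gaps that were bridged fell with every step in gap length. Of the wild-type gaps of 0.8 kb, 40.3% were covered by 1 knockdown peak, compared with 31.7% at 1.0 kb, 20.6% at 1.4 to 1.6 kb, 9.30% at 2.2 to 3.0 kb and 3.54% at 3.2 to 5.0 kb. Above 10 kb, 1 of 17696 gaps was covered. Knockdown gaps of the same lengths were covered by a wild-type peak more often, at 65.6%, 59.2%, 37.4%, 27.01% and 12.5%. Over all gaps up to 2 kb, 30.9% of 6706 wild-type gaps and 54.2% of 6383 knockdown gaps were bridged.

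**Figure D1:**
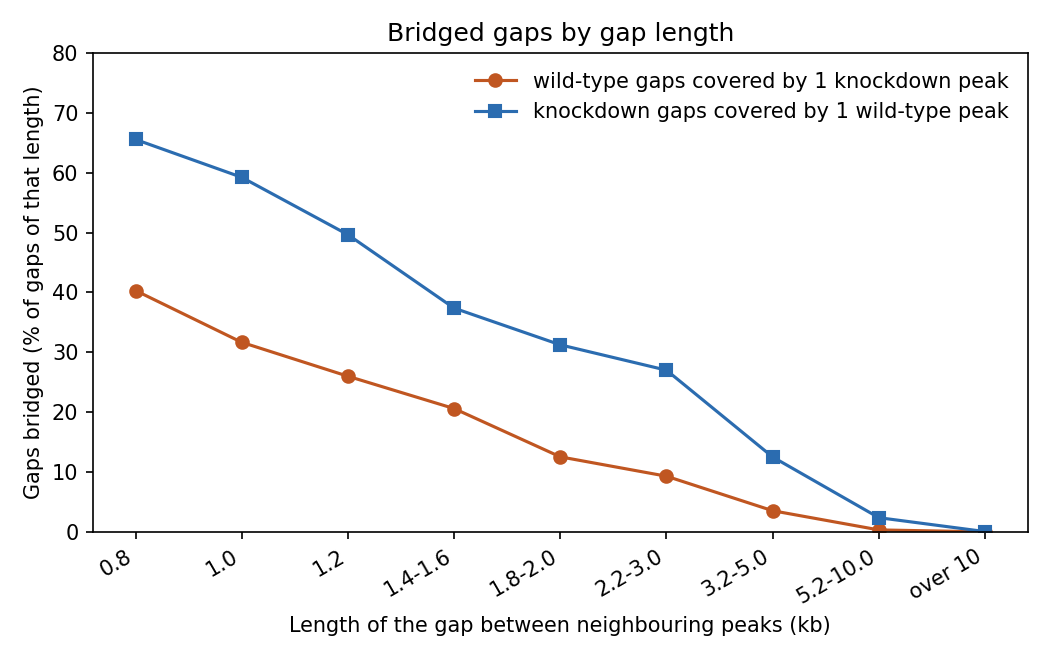
Share of gaps between neighbouring peaks of one list that were covered by 1 peak of the other (vertical axis, percent) by length of the gap (horizontal axis, kb classes), for wild-type gaps (orange circles) and knockdown gaps (blue squares). Both lines fall from left to right, from 40.3% and 65.6% at 0.8 kb, and the knockdown gaps lie higher in every length class.

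Although they joined wild-type peaks, the bridging peaks did not reach to the outer ends of what they joined. Of their 4334 outer edges, 3429 (79.1%) lay inside the outermost wild-type peak, 186 (4.29%) coincided with its end and 719 (16.6%) lay beyond it. The median edge lay 2.2 kb inside, at a signed distance of -2.2 kb. Bridging wild-type peaks had 57.3% of their edges inside and 36.6% beyond the outermost knockdown peaks, with a median of -0.4 kb. The bridging knockdown peak had a median of 0.586 of the span from the first to the last wild-type peak that it touched, and was narrower than the summed widths of those peaks in 1754 cases, wider in 382 and equal in 31. At the touched wild-type peaks, which covered 35.5 Mb, the bridging peak itself covered 50.04% of the DNA and all knockdown peaks together 77.9%.

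**Figure D2:**
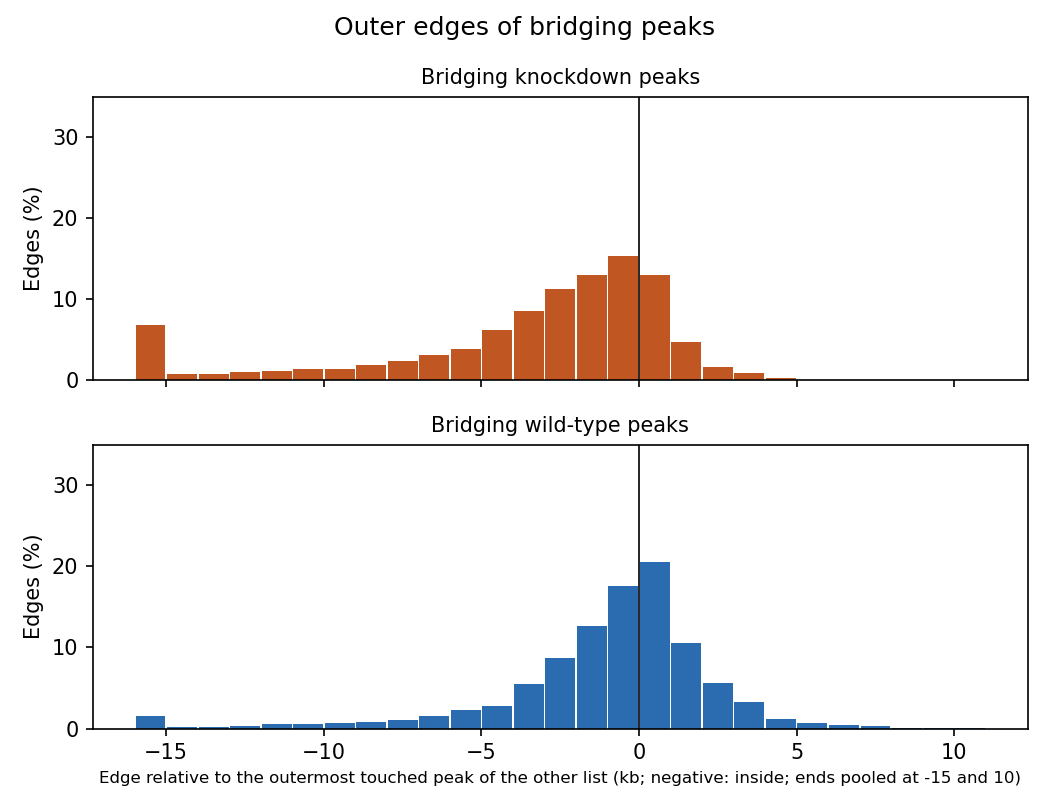
Position of each outer edge of a bridging peak relative to the end of the outermost peak it touched (horizontal axis, kb, negative values inside, values past -15 and 10 pooled) as a percent of edges (vertical axis), for bridging knockdown peaks (orange) and bridging wild-type peaks (blue). The knockdown edges lie mostly left of the line at 0, with 79.1% inside against 57.3% for the wild type.

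Joining and splitting often met at the same place. Of the bridging peaks, 1231 (56.8%) touched a wild-type peak that also met another knockdown peak, and 936 were clean joins in which the touched wild-type peaks met no other knockdown peak. When all touching peaks were chained into blocks, 1983 blocks held a bridging knockdown peak. Of these, 1051 had fewer knockdown than wild-type peaks, 584 had as many and 348 had more. A bridging peak therefore did not always go with a simpler pattern in the knockdown.

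Gene positions were not used by the rule. An annotated end of a protein-coding gene lay in 947 bridging peaks (43.7%) and in 33.0% of the 31930 other knockdown peaks. Of the 3452 bridging wild-type peaks 52.8% held such an end. The share for other wild-type peaks was not computed, so the difference is shown for the knockdown list only. A further 29.9% of bridging knockdown peaks lay within 1 gene and 26.4% outside these genes, against 34.6% and 32.4% of other knockdown peaks. Bridging knockdown peaks were also wider, and the part of width in this difference was not tested. Transcript starts numbered 68.6 per Mb in bridging peaks and 110 per Mb in other knockdown peaks, so per length of DNA the order was the opposite.

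Transcript starts were found in few bridged gaps, but short wild-type gaps that held a start were bridged more often than those without. Starts came from RefSeq promoter windows, and CG counts cover 300 bases. Of 154 wild-type gaps up to 2 kb with a start, 88 were bridged (57.1%, exact 95% binomial interval 48.9 to 65.1%). Of 6552 without a start, 1983 were bridged (30.3%, 29.2 to 31.4%). These intervals cover counting error over gaps only, and gaps of 1 pair of libraries are not replicates. The gap with a start had flanking peaks of much the same score, with a median of 11.95 for the lower flank against 12.1, but smaller summed flank widths, with medians of 8.3 against 11.4 kb.

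The difference lay in each class of gap length. At 0.8 kb, 73.2% of 71 gaps with a start and 39.4% of those without were bridged, at 1.0 to 1.2 kb 47.4% of 57 against 29.1%, and at 1.4 to 2.0 kb 34.6% of 26 against 16.9%. In the last class the interval for gaps with a start ran from 17.2 to 55.7% and so overlapped the interval of 15.0 to 18.8% for those without.

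Gaps whose start was rich in CG were bridged most often. With a split at 20 CG, chosen after the values were seen and met by 41.4% of all 33725 promoter windows, 64 of 86 short gaps with such a start were bridged (74.4%, 63.9 to 83.2%). Gaps that held poorer starts alone were bridged in 24 of 68 cases (35.3%, 24.1 to 47.8%), close to the gaps without a start when lengths were pooled. At 0.8 kb the shares were 78.8% of 52 CG-rich, 57.9% of 19 poorer and 39.4% without a start. At 1.0 to 1.2 kb they were 73.9% of 23, 29.4% of 34 and 29.1%, and at 1.4 to 2.0 kb 54.5% of 11, 20% of 15 and 16.9%. Median summed flank widths were 6.2 kb for CG-rich and 10.6 kb for poorer starts. The part of length and flanks was not tested. The 3 promoters printed above from bridged gaps, with 24 to 31 CG, belong to the group with 20 or more CG. Those of CCDC61 and PRAME belong to the gaps that were not bridged. CG reads the same on both strands, and a count of it describes the window and says nothing of any factor bound there.

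Knockdown gaps showed a smaller contrast. Of those up to 2 kb, 115 of 165 with a start were covered by a wild-type peak (69.7%, 62.1 to 76.6%) and 53.8% of those without. Starts of 20 or more CG gave 76.0% of 75 gaps and poorer starts 64.4% of 90. That order was found at 0.8 kb, with 86.0% of 50 gaps against 76.7% of 30. It was the opposite at 1.0 to 1.2 kb (68.4% of 19 against 73.1% of 26) and at 1.4 to 2.0 kb (16.7% of 6 against 47.1% of 34). With lengths up to 2 kb pooled, gaps over a CG-rich start were covered by the other list at similar shares in both directions, 74.4% and 76.0%. Gaps without a start differed, 30.3% against 53.8%. The part of gap length in these shares was not tested.

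**Figure D3:**
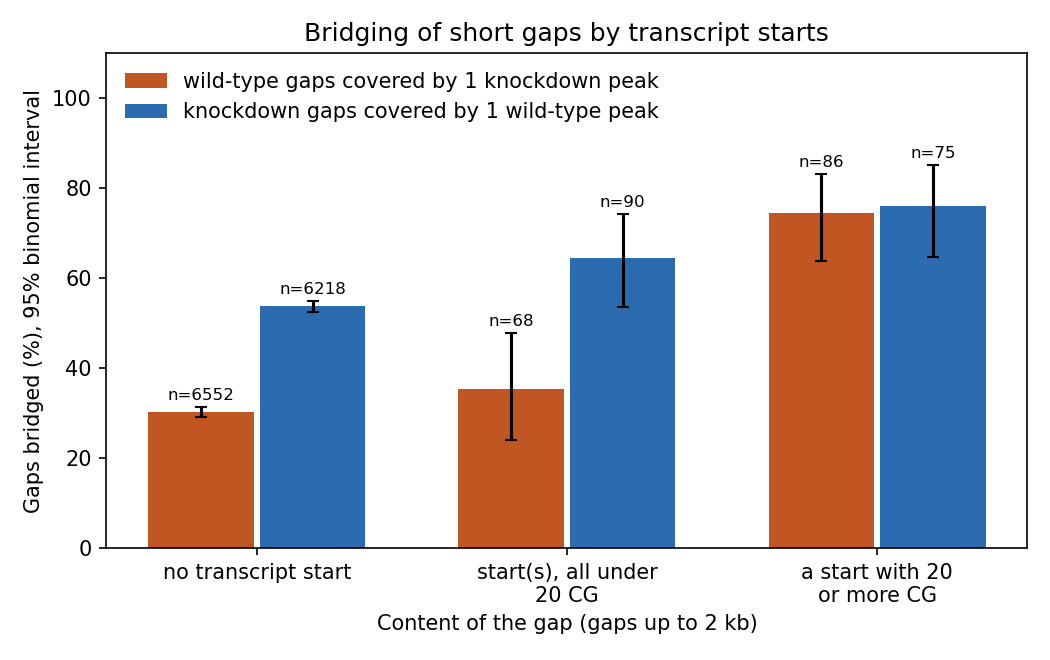
Share of gaps up to 2 kb that were bridged (vertical axis, percent, bars from 0, error bars exact 95% binomial intervals over gaps) by what the gap held (horizontal axis), for wild-type gaps covered by a knockdown peak (orange) and knockdown gaps covered by a wild-type peak (blue), with the number of gaps above each bar. The orange bars stand at 30.3%, 35.3% and 74.4%, and the blue ones at 53.8%, 64.4% and 76.0%.

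The starts in bridged gaps were those of CpG-rich promoters for the most part. There were 143 starts of 115 genes in 97 gaps, with a median of 25 CG, quartiles of 17 and 33, and a median GC content of 64.3%. In unbridged wild-type gaps up to 2 kb, 79 starts of 73 genes had a median of 13 CG. Over all promoters the median was 14, over starts in other knockdown peaks 26, and over starts outside peaks of both lists 3. The median in bridged gaps was thus near that in other knockdown peaks. Among them PER2, which encodes a circadian clock repressor, had the highest count, 60 CG in a gap of 0.8 kb, and HDAC4, which encodes a histone deacetylase, had 40 CG in a gap of 1.2 kb. These genes were chosen after their values were seen.

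Of the 19126 protein-coding genes used here, 1368 (7.15%) had an annotated end in a bridging knockdown peak and 179 (0.936%) in a bridged gap. In the exchanged comparison 2864 (15%) had an end in a bridging wild-type peak and 359 (1.88%) in a knockdown gap inside a wild-type peak. Counts of gene lists below are read against these shares, and wide domains hold many ends.

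Polycomb genes themselves were among the members. Of 30 PRC1 genes, 2 had an end in a bridging knockdown peak (6.67%), near the 7.15% of all protein-coding genes. In bridging wild-type peaks 10 had an end (33.3%, against 15% of all). RING1, a catalytic subunit, lay in a bridging peak of 29.6 kb (chr6:33190801-33220400) over wild-type peaks of 11.2 and 20 kb, with a gap of 0.8 kb between them. PCGF2, which encodes a PCGF subunit of canonical PRC1, had its 3′ end in a peak of 44.2 kb over wild-type peaks of 42.2, 9.8 and 2.4 kb. Of 13 PRC2 genes, 3 had an end in a bridging knockdown peak (23.1%) and 1 in a bridging wild-type peak (7.69%). That order was the reverse of the one for PRC1, but it rests on few genes.

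At LCORL the 5′ end itself was in DNA covered in the knockdown list alone. A knockdown peak of 4.4 kb (score 31.1) joined wild-type peaks of 1.4 and 2.2 kb (scores 60.1 and 14.3) across the gap of 1 kb that holds the promoter printed above. PHF1, an accessory subunit that binds methylated histone H3, lay in a peak of 12.2 kb over wild-type peaks of 5, 1.6 and 5 kb, and its 3′ end was in a gap of 0.8 kb. EPOP, another accessory subunit, lay in a peak of 21.6 kb over peaks of 8.2 and 19 kb. No end of the 11 H2A deubiquitinase genes and of the 21 m6A genes, YTHDF1 among them, lay in a bridging knockdown peak. In bridging wild-type peaks the counts were 2 and 1. Only 9 and 12 of these genes had an end in any knockdown peak. Over all protein-coding genes 10.8% of those with such an end lay in a bridging one, so these absences do not set the 2 lists apart.

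Among 33 pluripotency genes, 5 had an end in a bridging knockdown peak and 4 in a bridging wild-type peak. POU5F1, the gene of the core pluripotency factor OCT4, had its annotated end base in a knockdown peak of 9.8 kb (chr6:31168401-31178200, score 36.4). In the wild type this DNA held peaks of 10 and 6.4 kb (scores 56.9 and 14.5) with a gap of 1.2 kb. The peak thus joined 2 neighbours but was about as wide as the first of them. NODAL, a ligand that maintains pluripotency, had its 5′ end in a peak of 4.2 kb that overlapped wild-type peaks of 7.2 and 3.6 kb, and a second knockdown peak of 6.6 kb met the first of these. MYCN, which encodes a growth-promoting transcription factor, had its 5′ end in a peak of 10.6 kb over wild-type peaks of 5 and 6.6 kb that stood 3 kb apart. L1TD1, which encodes an RNA-binding protein of stem cells, and DPPA5, a marker of pluripotent cells, lay in narrow bridging peaks of 4.6 and 2.8 kb.

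Developmental transcription factor genes included some of the widest members. Of 39 HOX genes, which pattern the body axis, 10 had an end in a bridging wild-type peak. In bridging knockdown peaks 9 had an end, but all 9 shared 1 peak. That peak, the widest member at 143.6 kb, spanned HOXC13 to HOXC4 (chr12:53923001-54066600). It touched wild-type peaks of 143.8 and 29.6 kb across a gap of 1 kb and reached little into the second, while 2 more knockdown peaks of 19.2 and 4.4 kb lay on the rest. The annotated ends of the HOXC genes lay in the wild-type peak and none in the gap.

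Of 99 neural factor genes, 9 had an end in a bridging knockdown peak and 28 in a bridging wild-type peak. IRX4, an Iroquois homeobox factor, lay in a peak of 27 kb that joined wild-type peaks of 19.6 and 4.6 kb across 5.4 kb, with scores of 1000 and 9.90. PAX2, a factor of kidney and midbrain, had its 3′ end in a peak of 20 kb over wild-type peaks of 3.6 and 17.8 kb that stood 4 kb apart. The scores at PAX2 were 27.9 and 1000. In both cases a peak at the score ceiling was joined to one of lower score.

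Of 61 mesoderm factor genes, 8 had an end in a bridging knockdown peak and 19 in a bridging wild-type peak, and of 27 endoderm factor genes 4 and 6. TAL1, a factor of blood formation, lay in a peak of 29 kb over wild-type peaks of 10.8 and 19.8 kb, and its 3′ end fell in the gap of 3.6 kb. TBX3, a T-box factor found in both lists, lay in a peak of 46.2 kb over wild-type peaks of 48.6 and 6.4 kb. CDX1, an intestinal homeobox factor, had an end in a peak of 14 kb over wild-type peaks of 24.2 and 3 kb, with a gap of 3 kb.

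Genes of 5 signalling pathways were less numerous in bridging knockdown than in bridging wild-type peaks, as all protein-coding genes were (7.15% against 15%). The counts were 6 against 13 of 66 WNT genes, 5 against 8 of 36 FGF genes, 6 against 10 of 70 BMP, TGF-beta and NODAL genes, 3 against 5 of 21 Hedgehog genes and 4 against 12 of 30 Notch genes. WNT3A, a ligand of the canonical WNT pathway, had its ends in 2 separate bridging peaks of 27.4 and 31.4 kb, the second of which joined wild-type peaks of 14 and 16.6 kb. INHBA, which encodes a subunit of activin, had its outermost annotated 5′ base in a gap of 2.4 kb between wild-type peaks of 4 and 1 kb. A knockdown peak of 9.6 kb covered that gap, but no INHBA start from the promoter windows lay in the gap. HES7, a Notch-driven repressor of the segmentation clock, lay in a peak of 26.6 kb over wild-type peaks of 6.4, 12 and 9.8 kb, and its 3′ end fell in a gap of 1.6 kb. The knockdown peak was wider than the joined peaks at INHBA and narrower at HES7.

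The cell cycle inhibitor genes CDKN2A and CDKN2B, whose silencing by Polycomb is long known, showed peaks that were shifted in register. The wild type had peaks of 19.2, 16.2 and 13.4 kb, and the knockdown had bridging peaks of 20.8 kb (chr9:21962601-21983400) and 18.8 kb (chr9:21984201-22003000). Each of them covered 1 of the wild-type gaps of 0.8 kb, while the space between the knockdown peaks lay inside the middle wild-type peak. The 5′ end of CDKN2A lay in the second knockdown peak, as did the 3′ end of CDKN2B. Over all 13 cell cycle inhibitor genes, 2 had an end in a bridging knockdown peak and 5 in a bridging wild-type peak.

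IGF2, an imprinted growth factor gene, showed the same arrangement. Bridging peaks of 3.4 and 26 kb shared a wild-type peak of 2.2 kb, and the larger joined that peak with others of 20.8 and 3.2 kb. The annotated start base of IGF2 lay in a gap of 0.8 kb under the first. Of 38 imprinted genes 2 had an end in a bridging knockdown peak and 6 in a bridging wild-type peak. The other of the 2 was GNAS, which encodes a G protein subunit, in a peak of 18.6 kb.

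**Figure D4:**
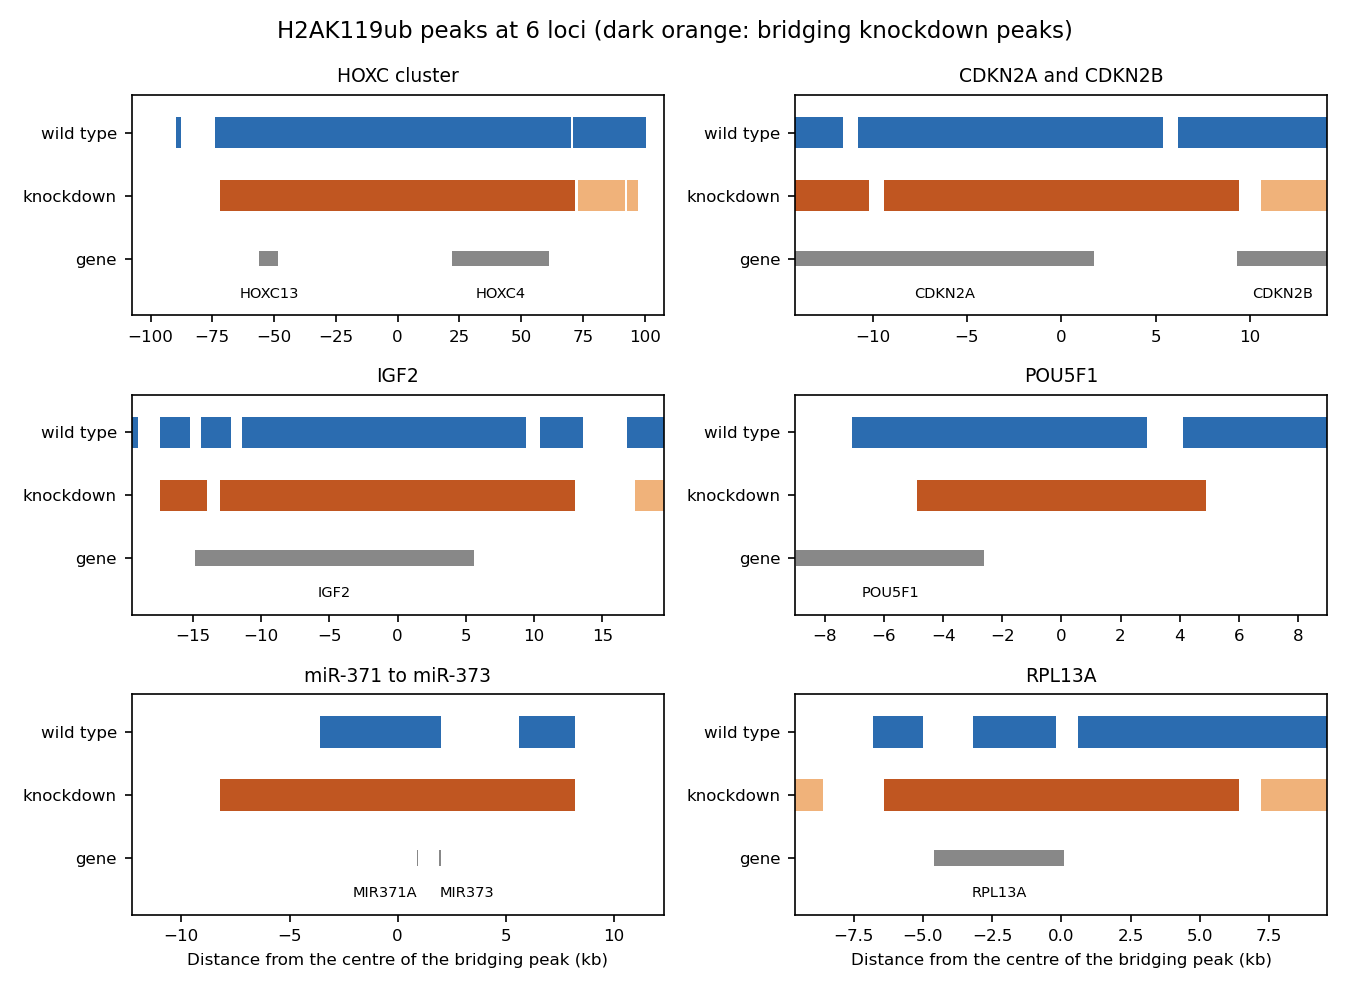
Maps of 6 loci with wild-type peaks (blue), knockdown peaks (dark orange where bridging, light orange otherwise) and annotated genes (grey) against distance from the centre of a bridging peak (horizontal axis, kb, a scale of its own in each panel). At CDKN2A and IGF2 adjacent bridging peaks meet the same wild-type peak, and at the HOXC cluster the peak of 143.6 kb crosses a gap of 1 kb at its right end.

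Genes of neurons, matrix and basic metabolism were also present. Of 72 axon guidance genes, 7 had an end in a bridging knockdown peak and 26 in a bridging wild-type peak, of 93 potassium channel genes 8 and 19, of 39 calcium and sodium channel genes 5 and 11, and of 43 GABA and glutamate receptor genes 2 and 9. Collagen genes came closer to balance, with 8 and 9 of 42. COL23A1, which encodes a transmembrane collagen, had its 5′ end in a peak of 8.6 kb over wild-type peaks of 4.4 and 5.8 kb. COL1A1, the main fibrillar collagen of bone and skin, had its annotated start base in a gap of 0.8 kb under a peak of 2.6 kb. At ROBO3, a guidance receptor, a peak of 26.8 kb joined wild-type peaks of 22.8 and 3 kb, and the 3′ end fell in the gap of 1 kb.

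Of 79 ribosomal protein genes, 6 had an end in a bridging knockdown peak and 20 in a bridging wild-type peak. RPL13A stood out by position, with its 5′ end in a bridged gap of 1.8 kb and its 3′ end in another of 0.8 kb, both under a knockdown peak of 12.8 kb (score 28.2). The wild type had peaks of 1.8, 3 and 16.4 kb there, with scores of 11.1, 15.0 and 116. Of 81 oxidative phosphorylation genes 7 and 15 had an end in such peaks. ATP5F1A encodes a subunit of ATP synthase and COX5A a subunit of cytochrome c oxidase. Their 5′ ends lay in peaks of 7.4 and 8.6 kb that crossed gaps of 3.8 and 3.6 kb. At both genes the joined wild-type peaks were narrow, 1.8 and 2.4 kb at ATP5F1A and 1.4 and 4 kb at COX5A.

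Low counts in other gene families are read beside how many of their genes had an end in any knockdown peak, since over all protein-coding genes 10.8% of those lay in a bridging one. The counts were 0 of 31 clustered protocadherins, 0 of 8 keratin genes, 2 of 43 histone genes, 8 of 131 zinc finger genes of chromosome 19, 1 of 22 germline genes and 2 of 9 olfactory receptor genes. Among genes with an end in any wild-type peak, the same families had 4 of 30, 4 of 11, 7 of 53, 20 of 122, 4 of 23 and 1 of 9 in a bridging one. Over all protein-coding genes this was 2864 of 12642. At ZNF416 the 5′ end lay in the gap of 0.8 kb whose promoter is printed above, under a peak of 9.8 kb that joined wild-type peaks of 7.4 and 7 kb. The histone genes H2BC6 and H4C4 shared 1 peak of 5.6 kb over wild-type peaks of 3.6, 2.2 and 0.8 kb.

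The longest gap bridged by a single peak lay inside TTLL9, a gene for a tubulin ligase-like enzyme. A knockdown peak of 30.6 kb (chr20:31885601-31916200, score 30.4) covered 15 kb between wild-type peaks of 60.6 and 23.6 kb, whose scores were 1000 and 50.04. The next in length, a gap of 6.4 kb, lay between peaks of 6 and 11.2 kb at MKNK1, which encodes a kinase of translation initiation, and MOB3C. There the knockdown peak of 18.4 kb had a score of 85.4, and the narrower wild-type peaks it joined had 30.4 and 62.3. With the unit and depth unknown, scores of the 2 lists cannot be ranked against each other. The 1 peak that touched 5 wild-type peaks (chr1:1898601-1931000) held ends of CALML6, TMEM52 and CFAP74, was 32.4 kb wide and crossed gaps of 1, 1.4, 0.8 and 0.8 kb. Wild-type peaks of 18.2, 7.6, 8.4, 1.6 and 5.4 kb lay under it, and the first of them also met another knockdown peak.

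The widest members after the HOXC domain measured 72 kb at BAHCC1, ACTG1 and FSCN2 on chromosome 17, 65.8 kb at SRCIN1 on the same chromosome, 65.2 kb at CLDN6 and CLDN9 on chromosome 16, 61.8 kb at HM13 and ID1 on chromosome 20 and 57 kb at JUNB and PRDX2 on chromosome 19. ACTG1 encodes a cytoplasmic actin, CLDN6 a tight junction protein of stem cells and ID1 an inhibitor of bHLH factors. The gaps these peaks crossed were 0.8 or 1 kb long. The bridging part of the widest domains was thus small beside their width.

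MicroRNA hairpins were annotated in 52 of the bridging peaks. Of 1461 hairpins 63 (4.31%) lay in them, against 132 (9.03%) in bridging wild-type peaks, and 5 lay in bridged gaps (MIR1244-1, MIR4456, MIR139, MIR7106 and MIR631). The hairpins of miR-371a, miR-371b, miR-372 and miR-373 all lay in 1 peak of 16.4 kb (chr19:53778601-53795000, score 25.1). The wild type had peaks of 5.6 and 2.6 kb there, 3.6 kb apart, with scores of 26.2 and 17.97, and the hairpins lay in the first of these. The knockdown peak was wider than both together. The let-7a-3 and let-7b hairpins lay in a peak of 16 kb over wild-type peaks of 28.4 and 3.6 kb, where the knockdown peak was narrower. The miR-139 hairpin lay in a gap of 0.8 kb between wild-type peaks of 2.6 and 6 kb, under a knockdown peak of 4.6 kb.

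Chromosomes 19 and 17 had the largest shares of bridging peaks in both directions. Bridging peaks made up 10.8% of knockdown peaks on chromosome 19, 9.30% on chromosome 17 and 8.30% on chromosome 22, and the smallest shares were 2.69% on chromosome 13 and 3.36% on chromosome 18. Bridging wild-type peaks made up 17.7%, 15.8%, 13.7%, 5.26% and 4.47% on the same chromosomes. On each of the 22 chromosomes the knockdown had fewer bridging peaks than the wild type, with a ratio between 0.493 on chromosome 4 and 0.842 on chromosome 15. Knockdown peaks also covered less DNA on each, from 0.730 of the wild-type length on chromosome 22 to 0.950 on chromosome 18. The chromosomes are parts of the same pair of libraries and do not repeat the comparison. The share of wild-type gaps up to 2 kb that were bridged ran from 23.4% on chromosome 8 to 38.1% on chromosome 18. It was 30.6% on chromosome 19 and 35.4% on chromosome 17, against 30.9% over all chromosomes. Across chromosomes, the share of bridging knockdown peaks rose with the number of such gaps per wild-type peak (Spearman correlation 0.951). The part of peak spacing in the chromosome shares was not tested.

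**Figure D5:**
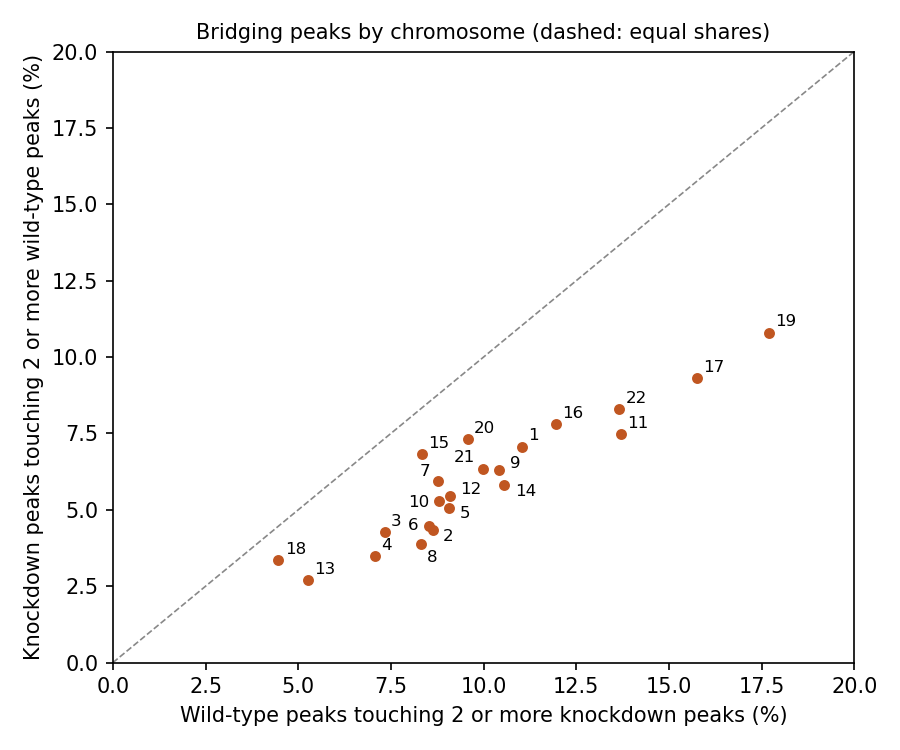
Bridging knockdown peaks as a percent of knockdown peaks (vertical axis) against bridging wild-type peaks as a percent of wild-type peaks (horizontal axis), 1 point for each of chromosomes 1 to 22, with a dashed line where both are equal. All 22 points lie under the line, from 2.69% against 5.26% on chromosome 13 to 10.8% against 17.7% on chromosome 19.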

How the data were processed

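The peak lists of the 2 H2AK119ub libraries of H1 cells were used. Per the submitters' processing notes, SICER 1.1, MACS2 2.1.0, Picard, SAMtools 1.3.1, Bowtie2 2.2.5, Trimmomatic 0.35 and the build hg38 were used, with no role or order stated. The sources used here give neither the peak caller nor its settings nor the use of input. The deposited lists hold a start, an end and a score per peak. The score is the authors' value of unknown unit and was used only to describe, rank or filter peaks. Deposited starts were multiples of 200 bp counted from 0 and ends were read as inclusive, so 1 was added to both to give the positions printed here. Neighbouring peaks of a list lay at least 0.8 kb apart, so shorter gaps could not be seen. Depth is unknown, and no count could be tested.

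From these lists the overlaps, gaps, outer edges and blocks of touching peaks were computed on chromosomes 1 to 22 with python 3.11.15, numpy 2.4.6, pandas 2.3.3 and scipy 1.17.1, after the overlap code had been tested on simulated data. Figures were drawn with matplotlib 3.10.9. Gene ends came from a RefSeq table (GRCh38.p14, the same coordinates as hg38), which gives neither strand nor exons, so intronic and exonic positions were not separated. Strand and starts came from a RefSeq promoter table that covers part of the genes. Where it lacks a gene, the annotated start or end base is named. Intervals are exact Clopper-Pearson intervals.

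The members, gene lists and comparisons were chosen with earlier results of these data known. Named genes followed a rule that gave 86 genes. It took those with an end in the 6 bridging peaks with the most bridged DNA, the 6 touching the most wild-type peaks and the 6 widest, all members of the PRC1, PRC2, deubiquitinase, m6A, pluripotency and cell cycle inhibitor lists with an end in a bridging peak, and 2 genes of each other list by longest gap. Not all are printed. Alternatives to the overlap rule, the score filter, the list sizes, narrow peaks, merging and gene windows are given in the closing section.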

Additional observations from a re-analysis of the deposited data

How the results depend on the processing

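The number of bridging knockdown peaks stayed under that of bridging wild-type peaks in every setting tried, with a ratio between 0.319 and 0.666. When a touched peak had to be covered to at least 50%, 666 knockdown and 2088 wild-type peaks bridged, over 0.869 Mb of gaps, with 624 genes in bridging peaks and 74 in bridged gaps, and 24.7% of the short gaps with a start were bridged, against 8.99% without. When only wild-type peaks sharing at least 1 kb were counted as touched, 1400 knockdown peaks bridged 1.86 Mb (they include the 1349 above and peaks that touch a further wild-type peak by less), with 42.2% of gaps with a start against 19.4% without. In the upper 50% of each list by score, 836 knockdown and 1499 wild-type peaks bridged, over 1.202 Mb, with 754 and 67 genes, and 27 of 54 short gaps with a start were bridged, against 30.8% without. With peaks under 2 kb apart merged, 776 knockdown and 1867 wild-type peaks bridged, with 851 and 91 genes. This merging removed every gap under 2 kb, so only gaps of 2 kb remained among the short ones. Of the 6 with a start, 2 were bridged (33.3%), against 27.7% without, too few to show whether the contrast held. Fewer or wider peaks enter by construction in the last 2 settings, and the cause of the other changes was not tested. Lists of equal number or equal covered length, narrow peaks left out and chromosome X included kept the numbers of bridging peaks and of genes and the bridged DNA within 1.5 times. Without narrow peaks, the bridged short gaps with a start fell from 88 to 57, but so did all such gaps, from 154 to 111 (51.4% bridged, against 29.96% without a start). Within 2 kb of a gene end, bridging knockdown peaks lay at 1552 genes, and 1802 genes had any base in one. Alternatives for gaps with a start were added after the data were seen. No paired analysis was possible because each group had 1 library. Depth is unknown and limits every count to a description of these libraries.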

Other observations

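Chromosome X, which was left out of all counts above, held 2 bridging knockdown peaks of 293 (0.683%) and 17 bridging wild-type peaks of 340 (5%). One of the 2, 30.4 kb wide with a gap of 0.8 kb, lay at SHOX, a homeobox gene of limb growth in the pseudoautosomal region. The other, 8.8 kb wide with a gap of 1 kb, held no end of a protein-coding gene. The window of 1 Mb with the most bridging knockdown peaks lay on chromosome 19 from base 1000001 to 2000000, where 18 of 86 knockdown peaks bridged.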
